A study of Mus musculus with 6 samples.

Results

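The genes described are 36 genes of the neuromuscular junction, of excitation-contraction coupling and of muscle energy supply, chosen by name and matched by symbol to the Ensembl identifiers of the bulk RNA-seq count tables. All 36 were found among the 56691 gene identifiers. The libraries came from the anterior and the posterior part of the palatal shelves, microdissected from C57BL/6J mice at embryonic day (E) 14.0, with 3 libraries per region. No treatment or engineered allele is given for either region, and the study calls the libraries biologically independent. Whether each came from a single embryo or from a pool is not given in the labels or the methods, and the p-values measure the spread between these libraries only. The comparison asks which genes of this machinery differ between the 2 regions, and which member of each fetal and adult, or muscle and non-muscle, pair was present.

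In a skeletal muscle fibre, acetylcholine released by the motor nerve opens a receptor channel that is concentrated under the nerve ending by agrin, MuSK, Dok-7 and rapsyn. The resulting depolarization is carried along the membrane and sensed in the transverse tubules by the dihydropyridine receptor, which opens the ryanodine receptor of the sarcoplasmic reticulum and releases calcium. SERCA pumps return the calcium to the store, and creatine kinase, glycogen phosphorylase and glycolytic enzymes supply ATP. The posterior palate gives rise to the soft palate, which contains skeletal muscle, whereas the anterior palate becomes the hard palate. Muscle replaces its receptor subunits and several enzymes as it matures, with the gamma subunit (Chrng) giving way to the epsilon subunit (Chrne).

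Reverse-stranded counts added up to 11378736 to 15172733 per library, and a limit of 3 counts, which a count of 0 allows, corresponded to 0.198 to 0.264 CPM, the unit of counts scaled to library size. These limits and all counting intervals cover counting error only. The 12 markers of skeletal muscle, which hold no gene of the 36, had a summed level of 13.2 to 17.6 CPM in the anterior and 821, 652 and 1138 CPM in posterior replicates 1, 2 and 3, and all 12 were called higher in the posterior palate by the test used below, against 4.87% of all genes tested. Of these, Myf5, Myod1 and Mymk had fewer than 10 counts in each anterior library, so that the count filter fixed their direction, which was not so for the other 9. The 5 cardiac markers summed to 1.67 to 2.77 CPM in the anterior and 3.74, 2.31 and 3.50 CPM in posterior replicates 1, 2 and 3, and their defining factor Nkx2-5 had 1 count in posterior replicate 1 and none in the other libraries. The 4 smooth muscle markers summed to 85.0 to 102 CPM in the anterior and 311, 211 and 197 CPM in posterior replicates 1, 2 and 3. By the same test Acta2 and Tagln were called higher in the posterior palate, with log2 fold changes of 1.24 (SE 0.17, adjusted p = 0.00475) and 1.66 (SE 0.31, adjusted p = 0.0205). Myh11 was not called (0.51 (SE 0.20, adjusted p = 0.174) on the log2 scale). Cnn1, with 5, 5 and 2 anterior and 5, 10 and 5 posterior counts, was not tested. Some of the genes below, such as Casq2, Jph2, Srl, Cacna2d1 and Atp2a2, are not specific to skeletal muscle, and the part of smooth muscle in their levels was not tested. The 5 neuron markers summed to 33.5 to 39.4 CPM in the anterior and 38.5, 239 and 16.4 CPM in posterior replicates 1, 2 and 3, and 4, 5 and 1 of them lay above every anterior library in posterior replicates 1, 2 and 3. The 5 motor neuron markers summed to 13.2 to 15.3 CPM in the anterior and 9.36, 74.2 and 4.11 CPM in posterior replicates 1, 2 and 3. Of them, Isl1 had 11.6, 11.9 and 13.4 CPM in the anterior and 2.62, 3.83 and 2.67 CPM in the posterior libraries. It was called higher in the anterior palate, with a log2 fold change of -2.01 (SE 0.20, adjusted p = 0.00135). Prph had 1.37, 1.24 and 1.38 CPM in the anterior and 6.21, 66.3 and 1.44 CPM in the posterior libraries and was not called. Chat, the enzyme that makes acetylcholine, had 0, 0 and 1 anterior and 0, 4 and 0 posterior counts. Slc18a3 had 2, 2 and 2 anterior and 5, 50 and 0 posterior counts, and Mnx1 had 1, 0 and 3 anterior and 2, 2 and 0 posterior counts. The labelled tissue was checked with 4 markers of palatal mesenchyme, which were present in every library and differed in direction. Prrx1 was called higher in the anterior palate (-1.34 (SE 0.11, adjusted p = 0.000604) on the log2 scale), Twist1 (0.74 (SE 0.12, adjusted p = 0.0129)) and Pdgfra (1.06 (SE 0.24, adjusted p = 0.0406)) higher in the posterior palate, and Osr2 (-0.43 (SE 0.24, adjusted p = 0.304)) was not called. The 4 epithelial markers summed to 939.8 to 1066 CPM in the anterior and 1183, 736 and 653 CPM in posterior replicates 1, 2 and 3, and Krt5 lay lower in all posterior than in all anterior libraries without being called (-0.93 (SE 0.24, adjusted p = 0.0616) on the log2 scale). Posterior replicates 2 and 3 stood apart from the other 4 libraries, with 6.12% and 5.94% of reads mapping to several places against 8.45% to 8.77%. They also had 0.973% and 1.14% of counts on mitochondrial genes against 2.70% to 2.97%. The comparison was therefore also made with a term for these 2 sets of libraries, given below. In bulk tissue, fewer cells of a type and less RNA per cell cannot be told apart.

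Differences between the regions were tested for 33 of the 36 genes by edgeR's quasi-likelihood test, which required at least 10 counts in at least 3 libraries, with p-values adjusted over all 15673 genes tested. A gene was called at an adjusted p below 0.05, and log2 fold changes are posterior over anterior, so that positive values are higher in the posterior palate. Posterior levels were called higher for 24 of the 36 genes, against 4.87% of all genes tested, and 1 (Eno3) was called higher in the anterior palate, against 2.59% of all genes. In either direction 7.46% of all genes were called. The other 8 tested genes were Agrn, Cacnb1, Jph1, Jsrp1, Casq1, Atp2a2, Pgam2 and Pfkm. Chrne, Clcn1 and Ckmt2 were not tested because they had too few counts. Among the members, 15 reached the test only through the posterior libraries, having fewer than 10 counts in each anterior library. They were Chrna1, Chrnd, Chrng, Musk, Dok7, Rapsn, Colq, Cacna1s, Cacng1, Trdn, Jsrp1, Atp2a1, Sln, Scn4a and Ckm. The count filter fixed the direction of such genes, so that their adjusted p and lack of overlap are given below as descriptions, and 70.5% of all genes of this kind passed in that direction, as did 14 of these members. Of the other 18 members tested, 10 were called higher in the posterior palate, against 4.09% of the other genes tested. The posterior libraries lay above all anterior libraries in 28 of the 36 genes, against 14.7% of all genes tested, but in the 15 members just named the filter fixed this order. Of the other 18 members, 13 lay above, against 13.7% of the other genes tested. The anterior libraries lay above all posterior ones in 1 gene (Eno3), against 13.4% of all genes tested. The median log2 fold change of these 18 members was 1.35, beside -0.0087 over the other genes tested, and that of all 33, which the filter raised, was 2.80. When a library-group term set posterior replicates 2 and 3 against the other 4 libraries, 22 of the 25 called members were called and Casq1 was added. The region difference then rests on posterior replicate 1 alone against the 3 anterior libraries. Its error comes from the spread among the other libraries, so that 1 sample is assumed to vary like the rest. Without posterior replicate 1, only posterior replicates 2 and 3 remain, so that region and library group cannot be told apart. That fit called 7309 of the 15673 genes tested, which holds for each call given below without posterior replicate 1.

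**Figure D1:**
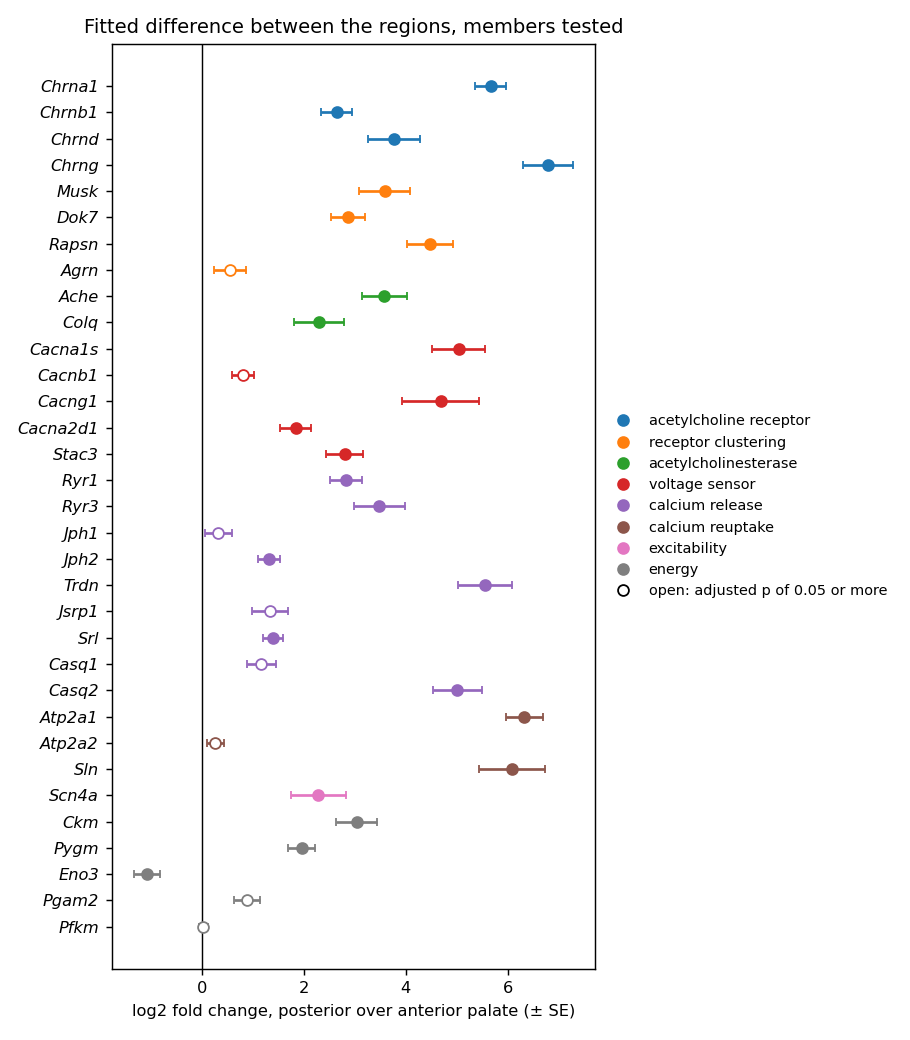
Log2 fold change of posterior over anterior palate for the 33 members tested, with standard errors, coloured by role. Filled circles mark the 25 members called at an adjusted p below 0.05. Chrng (6.80), Atp2a1 (6.33) and Sln (6.09) lie farthest to the right, and Eno3 (-1.09) is the only filled circle left of 0.

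The transcripts of the fetal muscle acetylcholine receptor were higher in the posterior palate, and that of the adult epsilon subunit was at or under the counting limit there. Chrnd (chr1:87190607-87200070) and Chrng (chr1:87204657-87212694) are neighbours on GRCm38, Chrne (chr11:70614883-70619216) and Chrnb1 (chr11:69784036-69795943) share chromosome 11, and Chrna1 lies at chr2:73563215-73580338. Chrna1, which encodes the subunit that carries most of the acetylcholine binding site, had 6, 3 and 2 counts in anterior replicates 1, 2 and 3 and 180, 194 and 254 counts in posterior replicates 1, 2 and 3. Its posterior level was 14.97 ± 2.14 CPM (SD, n = 3) and its anterior level 0.282 ± 0.152 CPM (SD, n = 3). The log2 fold change was 5.67 (SE 0.31, adjusted p = 0.000140), with the smallest adjusted p of the members, and 4.79 on unstranded counts. Chrng, the fetal gamma subunit, had 0, 1 and 1 counts in anterior replicates 1, 2 and 3 and 76, 85 and 125 counts in posterior replicates 1, 2 and 3. Anterior replicate 1 was thus at 0, and the regions did not overlap. Since its anterior counts were under the limit of 3 in every library, the ratio of pooled counts scaled to library size is given, and it was 132-fold (95% counting interval 36.1 to 1093). Chrnb1, the beta subunit, differed less, with 15, 23 and 8 counts in anterior replicates 1, 2 and 3 and 97, 93 and 120 counts in posterior replicates 1, 2 and 3 and a log2 fold change of 2.64 (SE 0.31, adjusted p = 0.00277). Chrnd, the delta subunit, had 3, 1 and 4 counts in anterior replicates 1, 2 and 3 and 37, 28 and 60 counts in posterior replicates 1, 2 and 3 and a log2 fold change of 3.77 (SE 0.51, adjusted p = 0.00495). All 4 of these subunits were highest in posterior replicate 3, and in none of them did the regions overlap. Chrna1, Chrnd and Chrng reached the test only through the posterior libraries, where 70.5% of all such genes were called. The filter fixed the direction and order of these 3, so that their adjusted p is a description, which is not so for Chrnb1.

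Chrne, the adult epsilon subunit that replaces gamma as junctions mature, had 4, 1 and 1 counts in anterior replicates 1, 2 and 3 and 1, 1 and 0 counts in posterior replicates 1, 2 and 3. Only anterior replicate 1 exceeded 3 counts, and the posterior libraries lay within the limit that a count of 0 allows. Without the filter on low counts its adjusted p was 0.578 in edgeR's test. In the posterior libraries together, Chrng had 286 counts and Chrne 2. Exon lengths here are those of GENCODE M21, whereas the identifiers in the count tables mostly carry later versions. Levels and shares per length thus depend on gene models that may differ from those counted. The lengths join all annotated exons of a gene and can exceed that of the transcript expressed. Per exon length, Chrng held 96.9%, 97.2% and 100% of the pair in posterior replicates 1, 2 and 3, with an exact (Clopper-Pearson) 95% interval of 94.1% to 99.8% for the pooled counts. No share is given for the anterior libraries, which had 2 to 4 counts over the pair. On the scale of CPM per kb of exon, levels of different genes can be compared only as far as these lengths hold. The posterior order of the subunits was Chrna1 at 3.41 ± 0.487 CPM per kb (SD, n = 3), Chrnb1 at 2.92 ± 0.302 CPM per kb (SD, n = 3), Chrng at 1.63 ± 0.372 CPM per kb (SD, n = 3), Chrnd at 0.903 ± 0.322 CPM per kb (SD, n = 3) and Chrne at 0.0290 CPM per kb. The ranges of Chrna1 and Chrnb1 overlapped over the 3 libraries, whereas those of Chrnb1 and Chrng, and of Chrng and Chrnd, did not. The neuronal subunits were taken as counterparts. Chrna3, Chrna4, Chrna7, Chrnb2 and Chrnb4, a list of 5, summed to 7.44 to 10.5 CPM in the anterior and 6.81, 28.8 and 10.8 CPM in posterior replicates 1, 2 and 3. Among the 4 that were tested, Chrnb2 had the largest log2 fold change, 2.03 (SE 0.91, adjusted p = 0.216). Chrna3, of autonomic ganglia, had 10, 2 and 0 anterior and 6, 148 and 6 posterior counts, and the 5 neuron markers were also highest in posterior replicate 2. Their part in these levels was not tested.

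**Figure D2:**
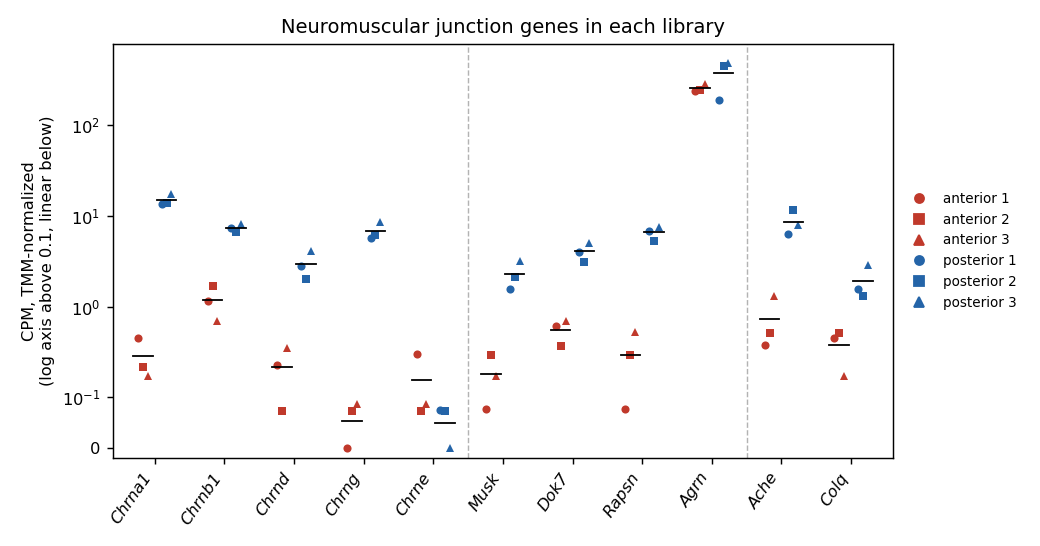
CPM of the 11 junction genes in each library, with anterior libraries in red, posterior libraries in blue and a black line at each mean. The vertical axis is logarithmic above 0.1 CPM and linear below. Dashed lines part receptor subunits, clustering genes and acetylcholinesterase genes. For Chrna1, Chrnb1, Chrnd and Chrng the posterior libraries lie above the anterior ones, Chrne is at most 0.304 CPM, and Agrn is at least 189 CPM.

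The sequences before the start sites are shown because subunit genes that rose and the one that did not can be compared there. Promoters of 24 of the 36 genes were found in a RefSeq table on GRCm38.p6, each reaching 250 bases before to 50 bases after a start site, and Rapsn, Jph1, Jsrp1, Stac3, Srl, Cacng1, Ryr3, Sln, Trdn, Colq, Chrnd and Atp2a2 had no entry. The E-box, bound by myogenic factors of the MyoD family, was searched as CANNTG and in its forms CAGCTG and CACCTG, the N-box, bound by ETS factors at synaptic genes, as CCGGAA, and the MEF2 site and the CArG box by their consensus, all on both strands. The 250 bases before the start are given 5′ to 3′ on the strand of the gene, with CAGCTG and CACCTG E-boxes, the N-box and MEF2 sites in capitals. They lie at chr2:73580339-73580588 (minus strand) for Chrna1, chr1:87205561-87205810 (plus strand) for Chrng, chr11:69795938-69796187 (minus strand) for Chrnb1, chr11:70619195-70619444 (minus strand) for Chrne, chr7:126463074-126463323 (minus strand) for Atp2a1 and chr3:102086165-102086414 (plus strand) for Casq2. The Chrng stretch lies inside the gene's annotated span, since its RefSeq start is downstream of the first annotated transcript start.
Chrna1: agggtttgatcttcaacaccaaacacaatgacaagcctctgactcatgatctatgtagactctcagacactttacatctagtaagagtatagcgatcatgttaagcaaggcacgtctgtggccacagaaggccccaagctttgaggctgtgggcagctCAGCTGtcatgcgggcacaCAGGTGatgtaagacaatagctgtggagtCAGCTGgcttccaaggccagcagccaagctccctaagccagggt
Chrng: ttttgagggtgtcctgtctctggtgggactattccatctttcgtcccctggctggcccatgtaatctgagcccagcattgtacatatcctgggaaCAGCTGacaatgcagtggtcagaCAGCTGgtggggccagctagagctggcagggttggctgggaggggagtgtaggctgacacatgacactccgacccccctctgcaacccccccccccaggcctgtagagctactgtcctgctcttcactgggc
Chrnb1: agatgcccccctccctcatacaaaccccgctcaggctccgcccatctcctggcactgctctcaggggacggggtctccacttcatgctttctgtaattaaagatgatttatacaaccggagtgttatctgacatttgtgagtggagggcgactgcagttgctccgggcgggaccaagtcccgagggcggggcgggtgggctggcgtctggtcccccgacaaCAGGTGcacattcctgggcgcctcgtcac
Chrne: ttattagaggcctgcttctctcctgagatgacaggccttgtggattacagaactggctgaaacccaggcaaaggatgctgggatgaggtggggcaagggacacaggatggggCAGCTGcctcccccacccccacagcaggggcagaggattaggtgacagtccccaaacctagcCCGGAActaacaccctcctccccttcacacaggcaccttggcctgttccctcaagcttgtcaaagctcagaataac
Atp2a1: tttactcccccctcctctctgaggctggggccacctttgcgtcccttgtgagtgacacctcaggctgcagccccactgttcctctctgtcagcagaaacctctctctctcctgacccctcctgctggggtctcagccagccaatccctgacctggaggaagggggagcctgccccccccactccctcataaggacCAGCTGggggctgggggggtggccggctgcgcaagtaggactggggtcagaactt
Casq2: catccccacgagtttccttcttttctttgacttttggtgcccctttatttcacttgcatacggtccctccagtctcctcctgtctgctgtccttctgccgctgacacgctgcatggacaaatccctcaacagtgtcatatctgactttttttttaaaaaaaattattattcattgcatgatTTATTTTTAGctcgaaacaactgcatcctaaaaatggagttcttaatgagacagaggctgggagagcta
In Chrna1 the capitals mark CAGCTG E-boxes that begin 92 and 44 bases before the start and a CACCTG E-box, read on the other strand, that begins 73 bases before it. In Chrng they mark CAGCTG E-boxes 155 and 132 bases before the start. Chrnb1, which also rose, held no CAGCTG, and its capitals mark a CACCTG E-box, read on the other strand, 29 bases before the start. CAGCTG thus did not part the subunits that rose from Chrne, which held it. The Chrne sequence held a CAGCTG E-box 138 bases and an N-box 76 bases before the start, and it was the only member with an N-box, which 14.9% of all 32851 promoters of this length held. Atp2a1 had a CAGCTG E-box 55 bases, and Casq2 a MEF2 site 69 bases, before the start. A MEF2 site was found in 3 members (Casq2, Clcn1 and Pgam2), against 3.19% of all promoters, and a CArG box in none, against 1.63%. CAGCTG, which is also counted under CANNTG, was held by 14 of the 31 promoters of members, against 16.3% of all promoters, CACCTG by 8, against 20.2%, and CANNTG by 24, against 72.3%. The 14 promoters with CAGCTG belong to 13 of the 24 members, since those of Jph2 overlap and hold the same site. CAGCTG was present in 8 of the 15 members with a promoter that were called higher in the posterior palate and in 5 of the other 9, among them Chrne, Ckmt2 and Eno3. A match of letters describes the sequence and is no evidence that a factor binds there.

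Of the genes that gather the receptor under the nerve, Musk, Dok7 and Rapsn were called higher in the posterior palate and agrin was not. All 3 reached the test only through the posterior libraries, where 70.5% of all such genes were called, and Agrn was the only clustering gene tested otherwise. Musk, the receptor tyrosine kinase that starts clustering, had 1, 4 and 2 counts in anterior replicates 1, 2 and 3 and 21, 29 and 46 counts in posterior replicates 1, 2 and 3, a log2 fold change of 3.58 (SE 0.50, adjusted p = 0.00561). Dok7, the cytoplasmic activator of MuSK, had 8, 5 and 8 counts in anterior replicates 1, 2 and 3 and 53, 43 and 74 counts in posterior replicates 1, 2 and 3, a log2 fold change of 2.86 (SE 0.34, adjusted p = 0.00310). Rapsn, the scaffold that binds the receptor, had 1, 4 and 6 counts in anterior replicates 1, 2 and 3 and 92, 74 and 111 counts in posterior replicates 1, 2 and 3, a log2 fold change of 4.48 (SE 0.45, adjusted p = 0.00143). Without anterior replicate 3 the Rapsn value was 5.09. In these 3 genes every posterior library exceeded every anterior one, and all 3 were highest in posterior replicate 3. Per length, Rapsn was at 3.67 ± 0.642 CPM per kb (SD, n = 3) in the posterior palate, in a range that overlapped that of Chrna1, and Musk at 0.602 ± 0.213 CPM per kb (SD, n = 3). Agrn, which encodes the proteoglycan that nerve terminals deposit and that many epithelia and vessels also make, was abundant in both regions, at 238, 246 and 288 CPM in the anterior and 189, 452 and 483 CPM in the posterior libraries. Posterior replicate 1 was below the anterior libraries and posterior replicates 2 and 3 were above them. The 4 endothelial markers summed to 317 to 343 CPM in the anterior and 286, 439 and 479.9 CPM in posterior replicates 1, 2 and 3, and their part in the Agrn level was not tested. Its log2 fold change of 0.54 (SE 0.32, adjusted p = 0.319) was not called and turned to -0.44 with the library-group term. It was called without posterior replicate 1 (log2 fold change 0.86, adjusted p = 0.000190 from edgeR), as were 7309 of all genes tested. In that fit region and library group cannot be told apart.

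The transcripts of acetylcholinesterase and of its collagen tail were both higher in the posterior palate. The second of these genes, Colq, reached the test only through the posterior libraries, so that the filter fixed its direction. Ache was tested otherwise. Ache, the enzyme that ends transmission by splitting acetylcholine, had 5, 7 and 15 counts in anterior replicates 1, 2 and 3 and 85, 159 and 115 counts in posterior replicates 1, 2 and 3, a log2 fold change of 3.57 (SE 0.45, adjusted p = 0.00373). It was the only called member that was highest in posterior replicate 2, the library with the highest neuron markers. It was 6.36 and 7.89 CPM in posterior replicates 1 and 3, against at most 1.30 CPM in the anterior libraries, and its log2 fold change was 4.24 without anterior replicate 3. Of the 5 neuron markers, 4 exceeded every anterior library in posterior replicate 1 and 1 (Snap25) in posterior replicate 3, and their part in the Ache level was not tested. Colq, the collagen tail that anchors the enzyme in the synaptic basal lamina, had 6, 7 and 2 counts in anterior replicates 1, 2 and 3 and 21, 18 and 42 counts in posterior replicates 1, 2 and 3, a log2 fold change of 2.29 (SE 0.49, adjusted p = 0.0318). The Colq call was lost with each anterior replicate left out (adjusted p = 0.110, 0.0975 and 0.102 from edgeR), without posterior replicate 3 (adjusted p = 0.0808) and with the library-group term (adjusted p = 0.120). Colq also shares part of its locus with the predicted gene Gm49387 on the same strand. Bche, the related butyrylcholinesterase, was not called, at 0.68 (SE 0.29, adjusted p = 0.195) on the log2 scale. Per length, Ache held 5.02%, 6.03% and 14.2% in the anterior and 48.2%, 43.4% and 34.7% in the posterior libraries of the pair with Bche.

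The dihydropyridine receptor, the voltage sensor of the transverse tubule, was represented by subunits with unequal differences. Cacna1s, its pore-forming skeletal muscle subunit, had 1, 1 and 3 counts in anterior replicates 1, 2 and 3 and 56, 43 and 94 counts in posterior replicates 1, 2 and 3, a ratio of pooled counts of 35.6-fold (95% counting interval 14.98 to 111). Cacng1, the skeletal muscle gamma subunit, had 3, 0 and 1 counts in anterior replicates 1, 2 and 3 and 62, 21 and 38 counts in posterior replicates 1, 2 and 3, a ratio of 27.9-fold (95% counting interval 10.6 to 104). Stac3, an adaptor that the sensor needs in muscle, had 17, 7 and 15 counts in anterior replicates 1, 2 and 3 and 101, 76 and 123 counts in posterior replicates 1, 2 and 3, a log2 fold change of 2.80 (SE 0.36, adjusted p = 0.00426). The regions did not overlap in any of these, and posterior replicate 2 was the lowest posterior library in all 3. Cacna1s and Cacng1 reached the test only through the posterior libraries, so that the filter fixed their lack of overlap, which is not so for Stac3. Cacng1 varied most between the posterior libraries, from 1.52 to 4.64 CPM, and its call was lost without anterior replicate 3 (adjusted p = 0.0558 from edgeR). Its fitted log2 fold change, 4.69, was 5.90 without anterior replicate 1, 4.10 without anterior replicate 2 and 5.36 with the library-group term. That of Cacna1s, 5.04, was 5.78 without anterior replicate 3 and 5.74 on unstranded counts. Cacna2d1 and Cacnb1, auxiliary subunits that other calcium channels also use, were present in both regions. Cacna2d1 had 46.1, 39.5 and 39.9 CPM in the anterior and 79.9, 176 and 191 CPM in the posterior libraries, a log2 fold change of 1.83 (SE 0.30, adjusted p = 0.0117). It was higher in posterior replicates 2 and 3 than in replicate 1, and it was no longer called with any 1 anterior replicate left out (adjusted p = 0.0524, 0.0671 and 0.0626 from edgeR). With the library-group term its log2 fold change was 0.93 and was called. Cacnb1 had 9.11, 8.29 and 13.5 CPM in the anterior and 14.6, 20.0 and 18.9 CPM in the posterior libraries, with no overlap, and a log2 fold change of 0.80 (SE 0.22, adjusted p = 0.0749) that was not called. It was called by DESeq2 (adjusted p = 0.0177), and by edgeR without the count filter (adjusted p = 0.0195) and without anterior replicate 3 (adjusted p = 0.0410). Without posterior replicate 1 it was also called by edgeR (adjusted p = 0.00666), as were 7309 of all genes tested.

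Of the 8 counterparts of the voltage sensor, 2 were called, against 7.46% of all genes tested in either direction. Cacna1d, a pore subunit of neuroendocrine and cardiac pacemaker cells, had 86, 77 and 86 anterior and 160, 267 and 345 posterior counts and a log2 fold change of 1.49 (SE 0.26, adjusted p = 0.0149). Stac2, a relative of Stac3, had 27, 24 and 37 anterior and 120, 87 and 80 posterior counts and a log2 fold change of 1.57 (SE 0.30, adjusted p = 0.0221). Both calls were lost without anterior replicate 1 (adjusted p = 0.0711 and 0.106 from edgeR), without anterior replicate 2 (adjusted p = 0.0796 and 0.101) and without posterior replicate 2 (adjusted p = 0.0563 and 0.0593). The Stac2 call was also lost in edgeR with a term for replicate number (adjusted p = 0.0513). Cacna1c, the pore subunit of heart and smooth muscle, had 308, 300 and 302 anterior and 413, 1090 and 1501 posterior counts and a log2 fold change of 1.58 (SE 0.39, adjusted p = 0.0521) that was not called. Per length it stood at 3.34 ± 1.73 CPM per kb (SD, n = 3) in the posterior palate, against 0.699 ± 0.260 CPM per kb (SD, n = 3) for Cacna1s.

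The calcium release apparatus of the sarcoplasmic reticulum had 6 of 9 genes called higher in the posterior palate, against 4.87% of all genes tested. Trdn and Jsrp1 reached the test only through the posterior libraries, and of the other 7 genes 5 were called, against 4.09% of the other genes tested. Ryr1, the release channel of skeletal muscle, had 26, 26 and 30 counts in anterior replicates 1, 2 and 3 and 145, 179 and 321 counts in posterior replicates 1, 2 and 3, a log2 fold change of 2.83 (SE 0.32, adjusted p = 0.00240). Ryr3, another release channel that fetal muscle also carries, had 3, 7 and 14 counts in anterior replicates 1, 2 and 3 and 68, 96 and 137 counts in posterior replicates 1, 2 and 3, a log2 fold change of 3.48 (SE 0.50, adjusted p = 0.00626), which was 4.24 without anterior replicate 3. Both were present in every posterior library and both rose. Per length, Ryr1 held 88.3%, 76.3% and 65.1% in the anterior and 64.9%, 61.8% and 67.1% in the posterior libraries of the pair, and the regions overlapped (exact permutation p = 0.2, two-sided, n = 3 per region; adjusted p = 0.25 over 10 pairs). Ryr2, the cardiac channel, had 31, 35 and 23 anterior and 22, 104 and 50 posterior counts and was not called (0.87 (SE 0.51, adjusted p = 0.318) on the log2 scale). Ryr3 overlaps Aven on the opposite strand, and Ryr1 overlaps 2 predicted genes there, for which the stranded counts were used.

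The calsequestrins bind calcium in the store, and triadin anchors them to the release channel. Trdn, triadin, had 1, 1 and 1 counts in anterior replicates 1, 2 and 3 and 76, 34 and 61 counts in posterior replicates 1, 2 and 3, a ratio of pooled counts of 52.5-fold (95% counting interval 17.7 to 257). Casq2, the calsequestrin of heart and of fetal and slow muscle, had 15, 4 and 4 counts in anterior replicates 1, 2 and 3 and 246, 188 and 389 counts in posterior replicates 1, 2 and 3, a log2 fold change of 5.01 (SE 0.47, adjusted p = 0.00109), which was 5.91 without anterior replicate 1. Casq1, the calsequestrin of fast muscle, had 20, 16 and 11 counts in anterior replicates 1, 2 and 3 and 43, 32 and 39 counts in posterior replicates 1, 2 and 3, a log2 fold change of 1.16 (SE 0.28, adjusted p = 0.0511) that was not called although the regions did not overlap. It was called in edgeR with at least 10 counts required in every library (adjusted p = 0.0404) and with the length correction (adjusted p = 0.0241). The same held without the count filter (adjusted p = 0.0499). Without posterior replicate 1 it was also called in edgeR (adjusted p = 0.0210), as were 7309 of all genes tested. With the library-group term its log2 fold change was 1.40. Per length, Casq1 held 65.2%, 84.9% and 79.4% in the anterior and 19.7%, 19.3% and 12.3% in the posterior libraries of the pair. The difference between the region means was -59.4 percentage points, with no overlap. The exact permutation test gave p = 0.1 (two-sided, adjusted p = 0.143 over 10 pairs), and 0.1 is the smallest value that 3 against 3 libraries allow. The anterior shares rest on 15 to 35 counts over the pair in each library.

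The junctophilins and the remaining store proteins were present in both regions. Jph2, the junctophilin that ties the store to the surface membrane in heart and muscle, had 61, 59 and 51 counts in anterior replicates 1, 2 and 3 and 123, 132 and 208 counts in posterior replicates 1, 2 and 3, a log2 fold change of 1.31 (SE 0.21, adjusted p = 0.0111), and its call was lost with any 1 anterior replicate left out (adjusted p = 0.0549, 0.0649 and 0.0535 from edgeR). Jph1, the junctophilin of skeletal muscle, had 91, 124 and 59 counts in anterior replicates 1, 2 and 3 and 86, 148 and 133 counts in posterior replicates 1, 2 and 3, overlapping regions and a log2 fold change of 0.32 (SE 0.27, adjusted p = 0.472). No difference was detectable at this precision, and its sign turned (-0.13) with the library-group term. Srl, sarcalumenin, a calcium-binding protein of the store, had 307, 327 and 258 counts in anterior replicates 1, 2 and 3 and 738, 643 and 1159 counts in posterior replicates 1, 2 and 3, a log2 fold change of 1.38 (SE 0.20, adjusted p = 0.00582). Jsrp1, which bridges voltage sensor and store, had 5, 8 and 9 counts in anterior replicates 1, 2 and 3 and 23, 20 and 18 counts in posterior replicates 1, 2 and 3. Its log2 fold change of 1.34 (SE 0.35, adjusted p = 0.0654) was not called, and the regions did not overlap, an order that the count filter fixed. It was called in edgeR with the length correction (adjusted p = 0.0347) and without posterior replicate 1 (adjusted p = 0.0339). The last of these fits called 7309 of all genes tested.

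**Figure D3:**
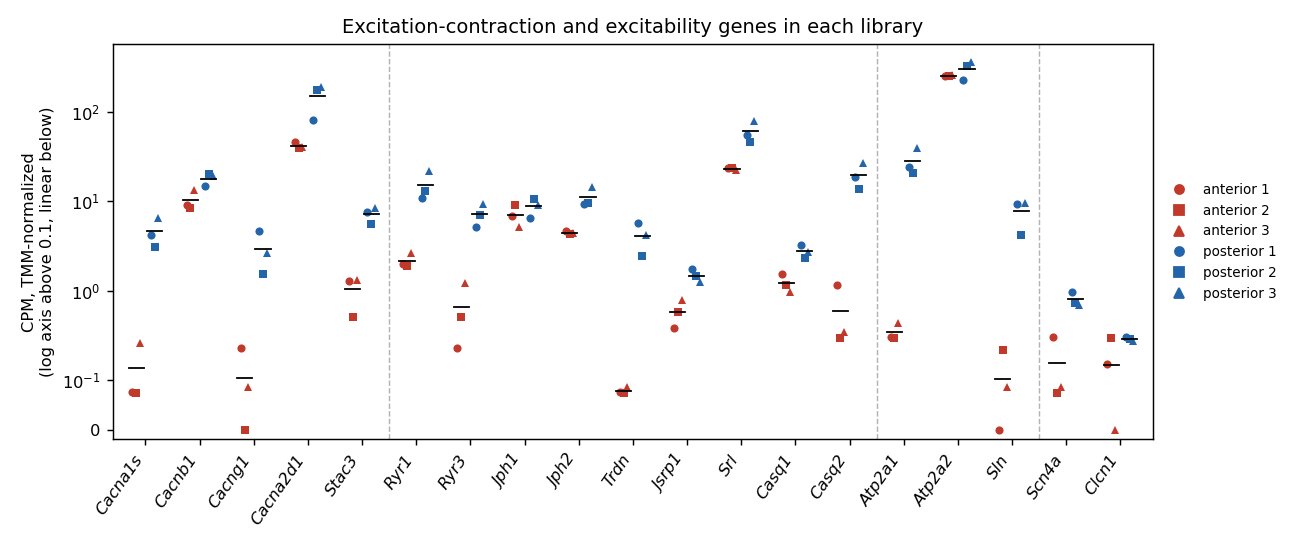
CPM of the 19 voltage sensor, calcium release, calcium reuptake and excitability genes in each library, with anterior libraries in red, posterior libraries in blue and a black line at each mean. The vertical axis is logarithmic above 0.1 CPM and linear below. Dashed lines part the 4 roles. Trdn is at most 0.0865 CPM in the anterior libraries and at least 2.46 CPM in the posterior ones, whereas Atp2a2 and Jph1 overlap between the regions.

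Calcium reuptake differed by pump. Atp2a1, SERCA1 of fast and fetal skeletal muscle, had 4, 4 and 5 counts in anterior replicates 1, 2 and 3 and 319, 289 and 567 counts in posterior replicates 1, 2 and 3, that is 0.342 ± 0.0784 CPM (SD, n = 3) and 27.9 ± 9.64 CPM (SD, n = 3). Its log2 fold change was 6.33 (SE 0.37, adjusted p = 0.000166), and 4.68 on unstranded counts. Sln, sarcolipin, a small peptide that binds SERCA and lowers its transport of calcium, had 0, 3 and 1 counts in anterior replicates 1, 2 and 3 and 124, 58 and 140 counts in posterior replicates 1, 2 and 3, a ratio of pooled counts of 74.2-fold (95% counting interval 28.7 to 274). In posterior replicate 2 Sln stood at 4.19 CPM, against 9.28 and 9.60 CPM in posterior replicates 1 and 3. Its fitted log2 fold change, 6.09, was 7.27 without anterior replicate 2. Atp2a2, SERCA2, which nearly all cells use, was far more abundant, at 254, 254 and 256 CPM in the anterior and 228, 329 and 358 CPM in the posterior libraries, and was not called (log2 fold change 0.26 (SE 0.16, adjusted p = 0.352)). Its sign turned (-0.16) with the library-group term. It was called without posterior replicate 1 (log2 fold change 0.43, adjusted p = 0.000786 from edgeR), as were 7309 of all genes tested. Per length, Atp2a1 held 0.209%, 0.200% and 0.295% in the anterior and 15.5%, 10% and 16.0% in the posterior libraries of the pair (exact permutation p = 0.1, adjusted p = 0.143, n = 3 per region). Pln, phospholamban, the cardiac relative of sarcolipin, had 0, 3 and 2 anterior and 0, 2 and 1 posterior counts, all within the limit that a count of 0 allows.

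The channels that set the excitability of the adult fibre were at the low end of detection. Scn4a, the sodium channel of skeletal muscle, had 4, 1 and 1 counts in anterior replicates 1, 2 and 3 and 13, 10 and 10 counts in posterior replicates 1, 2 and 3. Its log2 fold change of 2.28 (SE 0.54, adjusted p = 0.0477) was called just under the threshold, and it was not called by DESeq2 (adjusted p = 0.0857) or when anterior replicate 2 or 3 or posterior replicate 2 or 3 was left out (adjusted p = 0.184, 0.157, 0.108 and 0.0981 from edgeR). The Scn4a call was also lost on unstranded counts, with the library-group term and with the length correction, and its log2 fold change was 3.18 without anterior replicate 1. Clcn1, the chloride channel that stabilizes the resting potential of mature muscle, had 2, 4 and 0 counts in anterior replicates 1, 2 and 3 and 4, 4 and 4 counts in posterior replicates 1, 2 and 3, with overlapping regions. It overlaps Fam131b on the opposite strand, where 43 counts in the anterior and 32 in the posterior libraries together fell.

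The energy genes differed among themselves, with 2 of 6 called higher in the posterior palate, against 4.87% of all genes tested, 1 called higher in the anterior palate, against 2.59%, 2 not called and 1 not tested. Ckm reached the test only through the posterior libraries, and of the 4 genes tested otherwise 1 (Pygm) was called higher in the posterior palate, against 4.09% of the other genes tested. The median log2 fold change of the 5 tested was 0.88. Those of the receptor subunits (4.72) and the reuptake genes (6.09) rest on 3 of 4 and 2 of 3 genes that reached the test only through the posterior libraries, against 1 of 5 here, and are not set against it. Ckm, the creatine kinase of mature muscle cytoplasm, had 2, 2 and 2 counts in anterior replicates 1, 2 and 3 and 22, 14 and 20 counts in posterior replicates 1, 2 and 3, a ratio of pooled counts of 8.60-fold (95% counting interval 3.71 to 24.4). The gene was called in edgeR's test (adjusted p = 0.00483), while its counterpart Ckb, the creatine kinase of brain and many embryonic tissues, had 408, 437 and 281 anterior and 527, 622 and 511 posterior counts. Per length, Ckm held 0.485%, 0.453% and 0.702% in the anterior and 3.98%, 2.19% and 3.74% in the posterior libraries of the pair. Ckmt2, the mitochondrial creatine kinase of muscle, had 6, 2 and 1 counts in anterior replicates 1, 2 and 3 and 0, 0 and 4 counts in posterior replicates 1, 2 and 3, with 0 in posterior replicates 1 and 2. Pygm, the glycogen phosphorylase of muscle, had 36, 29 and 40 counts in anterior replicates 1, 2 and 3 and 158, 109 and 181 counts in posterior replicates 1, 2 and 3, a log2 fold change of 1.96 (SE 0.26, adjusted p = 0.00491). It held 2.67%, 1.98% and 3.05% in the anterior and 10.2%, 7.18% and 11.5% in the posterior libraries of the pair with the brain form Pygb per length, without overlap (exact permutation p = 0.1, adjusted p = 0.143, n = 3 per region).

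Of the 3 glycolytic members, 1 was called. Eno3, the beta-enolase of muscle, was the only member called higher in the anterior palate, with 664, 710 and 320 counts in anterior replicates 1, 2 and 3 and 240, 247 and 365 counts in posterior replicates 1, 2 and 3. Anterior replicate 3 was at 27.7 CPM, nearer to the 25.0 CPM of posterior replicate 3 than to the 50.4 and 51.6 CPM of the other anterior libraries. The log2 fold change was -1.09 (SE 0.26, adjusted p = 0.0462). The call was lost by limma-voom (adjusted p = 0.0634), with the library-group term (adjusted p = 0.0823), and without anterior replicate 1 or 2 or posterior replicate 2 or 3 (adjusted p = 0.169, 0.176, 0.157 and 0.0560 from edgeR). Per length, Eno3 was at 24.9 ± 7.75 CPM per kb (SD, n = 3) in the anterior palate and at 11.7 ± 2.36 CPM per kb (SD, n = 3) in the posterior palate. Pgam2, the phosphoglycerate mutase of muscle, had 70, 65 and 45 counts in anterior replicates 1, 2 and 3 and 95, 95 and 170 counts in posterior replicates 1, 2 and 3, no overlap, and a log2 fold change of 0.88 (SE 0.26, adjusted p = 0.0908) that was not called. It was called by DESeq2 (adjusted p = 0.0408), and by edgeR without the count filter (adjusted p = 0.0429) and without posterior replicate 1 (adjusted p = 0.0140). The last of these fits called 7309 of all genes tested. Pfkm, the phosphofructokinase of muscle, was even across the 6 libraries at 78.4, 74.8 and 85.2 CPM in the anterior and 79.1, 77.9 and 84.8 CPM in the posterior libraries, with a log2 fold change of 0.02 (SE 0.09, adjusted p = 0.899). It shares part of its locus with the predicted gene Gm26513 on the same strand. Of the ubiquitous partners, Eno1 (-0.51 (SE 0.15, adjusted p = 0.0894) on the log2 scale), Pgam1 (-0.43 (SE 0.11, adjusted p = 0.0608)) and Pfkl (-0.24 (SE 0.12, adjusted p = 0.248)) were not called.

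**Figure D4:**
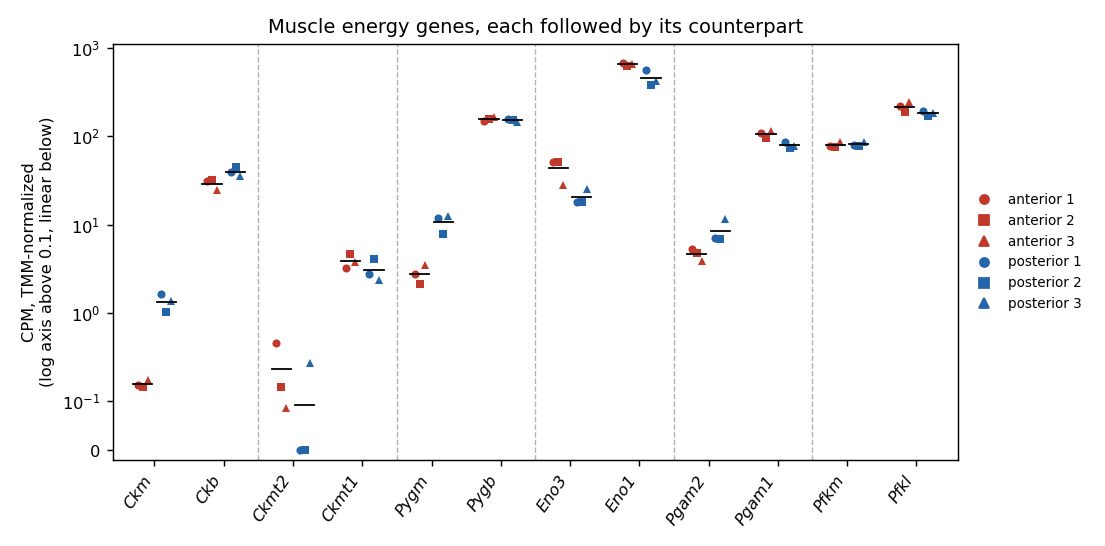
CPM of the 6 energy members in each library, each followed by its counterpart, with anterior libraries in red, posterior libraries in blue and a black line at each mean. The vertical axis is logarithmic above 0.1 CPM and linear below. Ckm and Pygm are higher in the posterior libraries, Eno3 is higher in the anterior libraries, and Pfkm is level.

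Over the 11 pairs, the share of the muscle or first-named gene could be compared between the regions in 10, and the first-named gene held more of its pair in every posterior than in every anterior library for Atp2a1, Ckm, Pgam2, Pygm, Pfkm and Ache, and less for Casq1. Each of these 7 had an exact permutation p of 0.1 and an adjusted p of 0.143, so that none could reach 0.05. Pgam2 held 10.4%, 10.5% and 7.44% in the anterior and 16.3%, 18.2% and 26.2% in the posterior libraries of the pair with Pgam1, and Pfkm 41.9%, 44.3% and 41.0% in the anterior and 45.0%, 47.9% and 47.8% in the posterior libraries of the pair with Pfkl. For Ryr1, Eno3 and Ckmt2 the shares of the regions overlapped. In the posterior palate the first-named gene was the larger share per length only for Chrng over Chrne and for Ryr1 over Ryr3 in all 3 libraries, and the smaller share in all 3 for the other 9 pairs.

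**Figure D5:**
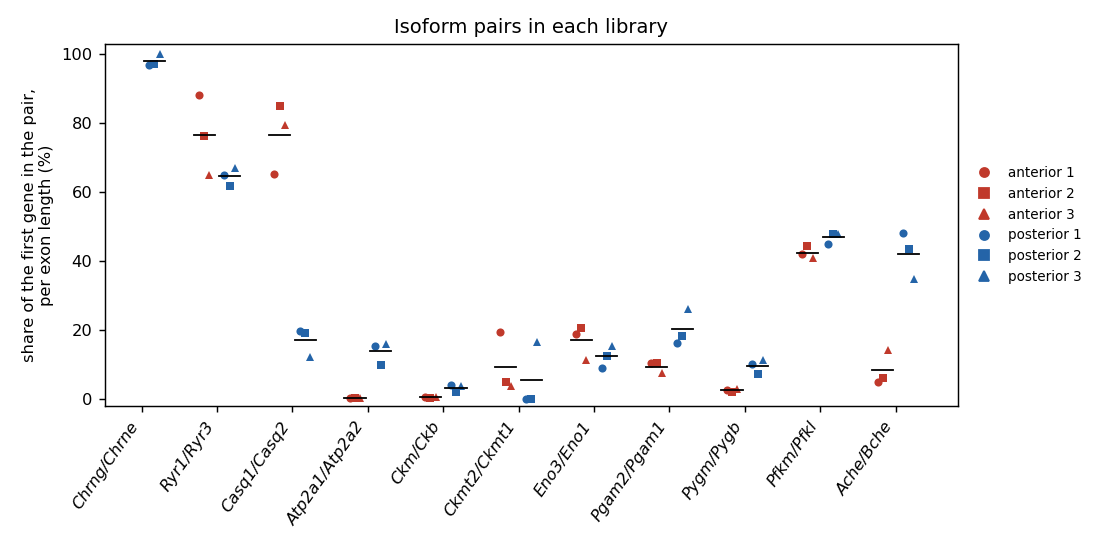
Share of the first-named gene in each of 11 pairs, per exon length, in percent of the pair in each library, with anterior libraries in red, posterior libraries in blue and a black line at each mean. The anterior libraries have no Chrng point because they held 2 to 4 counts over the pair. Chrng lies between 96.9% and 100% in the posterior libraries, and Casq1 lies at 65.2% to 84.9% in the anterior and at 12.3% to 19.7% in the posterior libraries.

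The 24 members called higher in the posterior palate did not have equal levels in its 3 libraries. Posterior replicate 3 was the highest for 19 of them and posterior replicate 2 the lowest for 15. Their summed level was 298, 365 and 492 CPM in posterior replicates 1, 2 and 3, so that in the sum replicate 1 was the lowest. Of the skeletal muscle markers, whose sum above was highest in replicate 3 and lowest in replicate 2, 8 of 12 were highest in replicate 3 and 7 of 12 lowest in replicate 2. The called members had a median log2 ratio to posterior replicate 1 of -0.26 in replicate 2 and 0.43 in replicate 3, on a scale of log2(CPM + 0.5). Over all genes tested these medians were 0.01 and 0.02. Whether the amount of muscle in each dissection differed was not tested.

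Per length, the members spanned the whole range from abundant general genes to genes at the counting limit. In the posterior palate Atp2a2 (50.1 ± 11.2 CPM per kb (SD, n = 3)), Agrn (40.4 ± 17.4 CPM per kb (SD, n = 3)) and Pfkm (24.1 ± 1.11 CPM per kb (SD, n = 3)) had the highest levels, and these 3 were not called. Among the called members the order began with Cacna2d1 (12.0 ± 4.85 CPM per kb (SD, n = 3)), Srl (11.3 ± 3.21 CPM per kb (SD, n = 3)), Atp2a1 (8.02 ± 2.77 CPM per kb (SD, n = 3)), Casq2 (7.15 ± 2.42 CPM per kb (SD, n = 3)) and Sln (5.84 ± 2.30 CPM per kb (SD, n = 3)), apart from Eno3. Each of these overlapped its neighbour over the 3 libraries. Ryr1 (0.699 ± 0.272 CPM per kb (SD, n = 3)) and Cacna1s (0.699 ± 0.260 CPM per kb (SD, n = 3)), which form the 2 sides of the coupling between surface membrane and store, overlapped, and Stac3 (2.82 ± 0.594 CPM per kb (SD, n = 3)) stood above both. At the low end were Scn4a, Ckmt2, Clcn1 and Chrne, all at or under 0.113 CPM per kb on average.

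Lists of genes of the same pathways outside the 36 were examined in the same fit. Of 37 other pathway genes, 33 were tested and 7 were called, all higher in the posterior palate. Of the 28 tested genes that did not pass the filter through the posterior libraries alone, 2 (Nrg1 and Erbb3) were called, against 4.09% of the other genes tested. Of 35 non-muscle counterparts, 33 were tested and 2 were called, also higher there. Over all genes tested, 4.87% were called in this direction, so that the share of counterparts called was near the background. In the junction list, 2 of 10 were called, and both calls were lost with the library-group term (adjusted p = 0.210 for Nrg1 and 0.113 for Erbb3 from edgeR) and with any 1 library other than posterior replicate 1 left out (adjusted p = 0.0695 to 0.187 and 0.124 to 0.155). Nrg1, a growth factor of nerve and muscle, had 29, 20 and 18 anterior and 47, 92 and 55 posterior counts and a log2 fold change of 1.41 (SE 0.33, adjusted p = 0.0462), and its receptor Erbb3, also of glia and epithelia, had 424, 452 and 333 anterior and 523, 781 and 833 posterior counts and a log2 fold change of 0.70 (SE 0.16, adjusted p = 0.0413). Lrp4, the agrin receptor, had 673, 762 and 632 anterior and 672, 923 and 1106 posterior counts and was not called (0.26 (SE 0.15, adjusted p = 0.319) on the log2 scale). In the calcium handling list, 3 of 11 were called. All 3 reached the test only through the posterior libraries, where 70.5% of all such genes were called, and the others had an adjusted p of at least 0.0804 (Tmem38a, edgeR). Sypl2, a membrane protein of the triad, had 5, 7 and 3 anterior and 47, 26 and 42 posterior counts, Cav3, the muscle caveolin, had 2, 1 and 5 anterior and 60, 40 and 65 posterior counts, and Mrln, the peptide myoregulin that inhibits SERCA, had 1, 2 and 3 anterior and 20, 20 and 38 posterior counts. Their log2 fold changes were 2.80 (SE 0.39, adjusted p = 0.00547), 4.17 (SE 0.50, adjusted p = 0.00308) and 3.49 (SE 0.50, adjusted p = 0.00613).

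In the energy list, 2 of 16 were called, and both again reached the test only through the posterior libraries. Mb, myoglobin, which stores oxygen in muscle, had 7, 5 and 2 anterior and 33, 37 and 50 posterior counts and a log2 fold change of 2.95 (SE 0.39, adjusted p = 0.00442). Cox6a2, the muscle form of a cytochrome oxidase subunit, had 0, 1 and 0 anterior and 21, 18 and 24 posterior counts, a ratio of 58.0-fold (95% counting interval 10.04 to 2328). Another pair of muscle genes was at 0 in all anterior libraries. Ampd1, the AMP deaminase of muscle, had 3, 9 and 9 posterior counts, and Cox8b, another muscle form of cytochrome oxidase, had 7, 3 and 10. Their posterior means were 2.12 and 2.02 times the limit of 3 counts in each anterior library. These values leave out the counting error of the posterior counts. Posterior replicate 1 for Ampd1 and posterior replicate 2 for Cox8b were themselves at 3 counts. The general glycolytic genes Aldoa, Gapdh, Tpi1, Pgk1, Pkm and Ldha had log2 fold changes from -0.49 (Ldha, adjusted p = 0.0529 from edgeR) to -0.33 (Tpi1, adjusted p = 0.236), with the adjusted p of the others between these values.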

How the data were processed

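The authors deposited, for each of the 6 libraries, raw read counts per Ensembl gene for both strands together and for each strand, in the layout of STAR's gene counts. Their notes name mm10, HISAT2, StringTie and DESeq2 1.30.1, and the annotation behind the counts is not given in the sources used here. Reverse-stranded counts were used, as 18.95 to 23.1 times those of the other strand. Multimapped, unmapped, ambiguous and featureless reads stayed out of library sizes. Symbols, positions and exon lengths are GENCODE M21's (GRCm38), matched without version number for 52073 of 56691 identifiers. Of these, 52036 carry a later version in the count tables than in M21, so the exons counted may differ from the M21 exons behind levels per length. Exon lengths join all annotated exons of a gene.

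Regions were compared in R 4.3.3 with edgeR 4.0.16 (quasi-likelihood test after TMM scaling, at least 10 counts in at least 3 libraries, Benjamini-Hochberg threshold 0.05), which was tested on simulated data. SEs were derived from the F statistic. The members and all lists were chosen with earlier results of these data known. All 36 members are named, with the counterparts and other pathway genes that were called. Shares of a pair, counts per exon length, needed at least 10 counts per library and were compared by exact permutation tests. The alternatives were DESeq2 1.42.0, RLE normalization, limma-voom (3.58.1), 2 other count filters, unstranded counts, a replicate block, a library-group term, a length correction, a fold limit and leaving out each replicate.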

Additional observations from a re-analysis of the deposited data

Results flagged for a closer look

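Counts on the strand opposite to the gene, which the comparisons did not use, were higher in all posterior than in all anterior libraries relative to all counts on that strand for 5 members. Ache had 11 such counts in the posterior and 1 in the anterior libraries together. Cacna1s had 4 and 0. Cacna2d1 had 22 and 7, Atp2a2 had 89 and 51, and Pfkm had 65 and 38. The share of all genes with this order was not computed, so the 5 are not read as particular to the members. The source of these reads was not tested.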

How the results depend on the processing

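Of the 25 members called, 19 were called in each fit that tested them, and Colq, Cacng1, Cacna2d1, Jph2, Scn4a and Eno3 were not. Member calls ranged from 20 to 31 with 1 replicate left out. They fell to 6, all of them posterior, with at least 10 counts required in every library, a filter that 13 members passed. Eno3 was the 1 anterior call, and this count became 0 under that filter, by limma-voom, with the replicate block, with the library-group term and with the length correction, and 0 to 1 with 1 replicate left out. The replicate block left 22 members called, losing Colq, Scn4a and Eno3, and 829 genes in all. Same-numbered libraries did not deviate together (r = -0.053, 0.045 and 0.036), and not every library correlated best with its own number, so the numbers are not taken as pairs. Library-group term values reversed for Agrn (-0.44), Jph1 (-0.13), Atp2a2 (-0.16) and Pfkm (-0.0054), and Pfkm ranged from -0.021 to 0.073 with 1 replicate left out. None of these 4 was called with the library-group term, and Agrn and Atp2a2 were called without posterior replicate 1.

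Over all genes, DESeq2 called 1978 and edgeR without the count filter 2162, and leaving out 1 replicate gave 528 to 7309, the last without posterior replicate 1. Counterpart calls were 7 by DESeq2, 7 without the filter, 4 with the library-group term and 0 to 17 with 1 replicate left out. Other pathway calls were 11 without the filter, 2 with the stricter filter and 5 to 24 with 1 replicate left out. In each of these lists the highest count was without posterior replicate 1. Under the stricter filter the median log2 fold change was 0.54 for receptor clustering, 1.31 for the voltage sensor, 0.25 for reuptake and 0.45 for energy, since fewer members were tested. On unstranded counts it was 4.28 for the receptor, 4.68 for reuptake and 0.38 for energy. With the library-group term it was 2.57 for acetylcholinesterase and 2.57 for excitability, which is Scn4a alone. With 1 replicate left out it was 4.42 to 5.01 for the receptor, 2.46 to 3.00 for the voltage sensor and 1.93 to 3.18 for excitability. On raw counts instead of counts per exon length, mean posterior shares were 67.8% for Ryr1, 12.9% for Casq1, 8.42% for Atp2a1, 4.39% for Eno3, 9.79% for Pgam2, 6.64% for Pygm, 30.6% for Pfkm and 33.4% for Ache. On unstranded counts they were 67.4% for Ryr1, 9.49% for Atp2a1 and 0.959% for Ckm. The cause was not tested where none is named. Depth limits Chrne, Clcn1, Ckmt2 and the anterior values of most junction genes, which rest on a few counts.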
